A study of Homo sapiens with 12 samples.

Results

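The genes described here encode 5 cytosolic enzymes of the pentose phosphate pathway and its neighbours: PGD, TKT, TALDO1, ME1 and IDH1. They were taken by symbol from the table of read counts, after the version was removed from each Ensembl identifier. All 5 of 5 were found among the 60710 genes of the table, and all 5 were among the 16366 genes with enough counts to be tested. RNA was measured in SH-SY5Y, a human neuroblastoma line often used as a neuron-like model, in 12 libraries that form 4 groups of 3. The groups were cells given the solvent DMSO alone (the control), HPPE, zinc protoporphyrin or tin protoporphyrin, each compound at 5 µM in DMSO for 5 h. The labels give no genetic change in any group and do not spell out HPPE, and the series title names activators of the transcription factor NRF2 as its subject. Zinc and tin protoporphyrin are porphyrins with the ring of heme, in which another metal stands in place of iron. Nothing in the labels says that the 3 libraries of a group came from separate cultures, so the p-values measure the spread between these libraries, which may be technical.

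NADPH is the electron donor for glutathione and thioredoxin recycling and for the synthesis of fatty acids and sterols. In the cytosol it is regenerated from NADP+ by the oxidative branch of the pentose phosphate pathway, by malic enzyme and by isocitrate dehydrogenase. NRF2 binds antioxidant response elements together with small MAF proteins, and all 5 genes are commonly listed among its targets. The name NADPH-producing enzymes holds strictly for 3 of the 5. PGD (6-phosphogluconate dehydrogenase) makes NADPH in the oxidative branch, ME1 makes it while turning malate into pyruvate, and IDH1 makes it while turning isocitrate into 2-oxoglutarate. TKT (transketolase) and TALDO1 (transaldolase) move carbon between sugar phosphates in the non-oxidative branch and reduce no NADP+ themselves.

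The promoters of the genes that the results turn on are shown because the compounds were studied as NRF2 activators and the antioxidant response element has a recognisable core. Each sequence is the 250 bases before the RefSeq start site in GRCh38.p14, read 5′ to 3′ on the strand of the gene. Capitals mark the element's core, TGACNNNGC or its reverse complement GCNNNGTCA, searched on both strands of a window that also holds the first 50 bases after the start. The windows are ME1 chr6:83431052-83431301 on the minus strand, PGD chr1:10398814-10399063 on the plus strand, IDH1 chr2:208255072-208255321 on the minus strand, at the more upstream of its 2 listed starts, and TKT chr3:53256023-53256272 on the minus strand.
ME1: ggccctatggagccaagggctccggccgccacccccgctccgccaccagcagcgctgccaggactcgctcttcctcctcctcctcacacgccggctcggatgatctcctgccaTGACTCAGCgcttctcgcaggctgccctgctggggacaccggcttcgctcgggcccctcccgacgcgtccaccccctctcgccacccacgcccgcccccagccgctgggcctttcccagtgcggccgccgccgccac
PGD: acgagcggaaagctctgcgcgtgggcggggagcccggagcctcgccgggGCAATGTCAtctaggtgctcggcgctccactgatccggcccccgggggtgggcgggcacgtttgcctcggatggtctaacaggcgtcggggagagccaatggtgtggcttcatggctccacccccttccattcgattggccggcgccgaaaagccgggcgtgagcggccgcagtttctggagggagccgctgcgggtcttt
IDH1: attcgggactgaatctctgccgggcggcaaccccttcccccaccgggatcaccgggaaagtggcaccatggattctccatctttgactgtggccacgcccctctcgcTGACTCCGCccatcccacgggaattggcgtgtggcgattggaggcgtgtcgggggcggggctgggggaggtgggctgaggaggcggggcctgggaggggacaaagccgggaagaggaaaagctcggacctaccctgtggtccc
TKT: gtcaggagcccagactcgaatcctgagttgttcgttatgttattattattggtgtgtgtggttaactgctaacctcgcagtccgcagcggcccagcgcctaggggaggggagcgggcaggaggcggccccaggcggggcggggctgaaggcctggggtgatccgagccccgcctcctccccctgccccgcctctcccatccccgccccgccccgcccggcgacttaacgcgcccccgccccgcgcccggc

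The ME1 window held a core match at -137 to -129 from the start, with the letters TGACTCAGC. Its first 7 letters are also the core of an AP-1 site, TGACTCA, a motif found in 4.95% of all promoters in the table. A second core match in ME1 lay at 11 to 19 bases after the start, on the reverse strand. PGD had a reverse match at -201 to -193, and IDH1 had a match at -143 to -135 from its upstream start and none at the other start. The windows of TKT and TALDO1 held no match. The core occurred in 4687 of 35116 promoters of the same length, or 13.3%. The exact letters of the upstream ME1 match occurred in 0.561%, and those of the second ME1 match in 0.0854%. For the PGD match the share was 0.239% and for the IDH1 match 0.268%, so this share does not set ME1 apart. These matches describe letters in a window and do not show binding.

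The libraries held between 1337028 and 9145399 counts in genes, and the shallowest was zinc protoporphyrin replicate 1. Of 9 markers of noradrenergic neuroblastoma, 8 averaged at least 1 count per 1e+06 counts (CPM). Their summed level ran from 4110 to 4340 CPM in the control libraries, 3904 to 3916 with HPPE, 3558 to 4007 with zinc and 3858 to 3995 with tin protoporphyrin. None of the 5 blood and endothelial markers averaged 1 CPM and HBA1 and HBB were at 0, while 1 of the 5 glial markers averaged 1 CPM. All 6 fibroblast and mesenchymal markers averaged at least 1 CPM, with a summed level between 430.8 and 484.9 CPM over all 12 libraries. That sum holds members that moved: against the control edgeR called 1 of 6 with HPPE (PDGFRB, higher), 3 of 6 with zinc (COL1A2 and DCN higher, COL3A1 lower) and 3 of 6 with tin protoporphyrin (COL1A2, DCN and PDGFRB higher). The part of these marker levels in the results was not tested. Replicates also differed along an axis tied to transcript length that held 52.7% of the variance within groups. The correlation of a library's deviation with transcript length averaged 0.07 ± 0.47 (SD, n = 3) in the control group, -0.34 ± 0.21 with HPPE, 0.39 ± 0.16 with zinc and -0.07 ± 0.54 with tin protoporphyrin. Because this trend moved with the groups, the fold changes of the 5 genes were also fitted with each library's length and GC trend removed. Another fit held that axis as a term. The axis was centred within each group, so its term narrows the spread within groups and cannot remove a trend that differs between groups.

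ME1 and TKT rose with HPPE, by 2.37-fold and 1.41-fold, and none of the 5 genes passed the test with zinc or tin protoporphyrin against the control. PGD was 1.16-fold higher with HPPE than in the control, which did not pass the test, and TALDO1 and IDH1 did not pass it in any comparison. Tests used edgeR's quasi-likelihood F test, two-sided, with Benjamini-Hochberg adjustment across the 16366 tested genes, and calls were made below an adjusted p of 0.05. Of all genes tested, HPPE called 2.57% higher and 1.47% lower than the control, zinc protoporphyrin 1.84% higher and 0.415% lower, and tin protoporphyrin 1.9% higher and 0.379% lower. Levels are given in CPM after TMM scaling, as mean ± SD over 3 libraries, and differences as log2 fold change ± standard error with a 95% confidence interval.

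**Figure D1:**
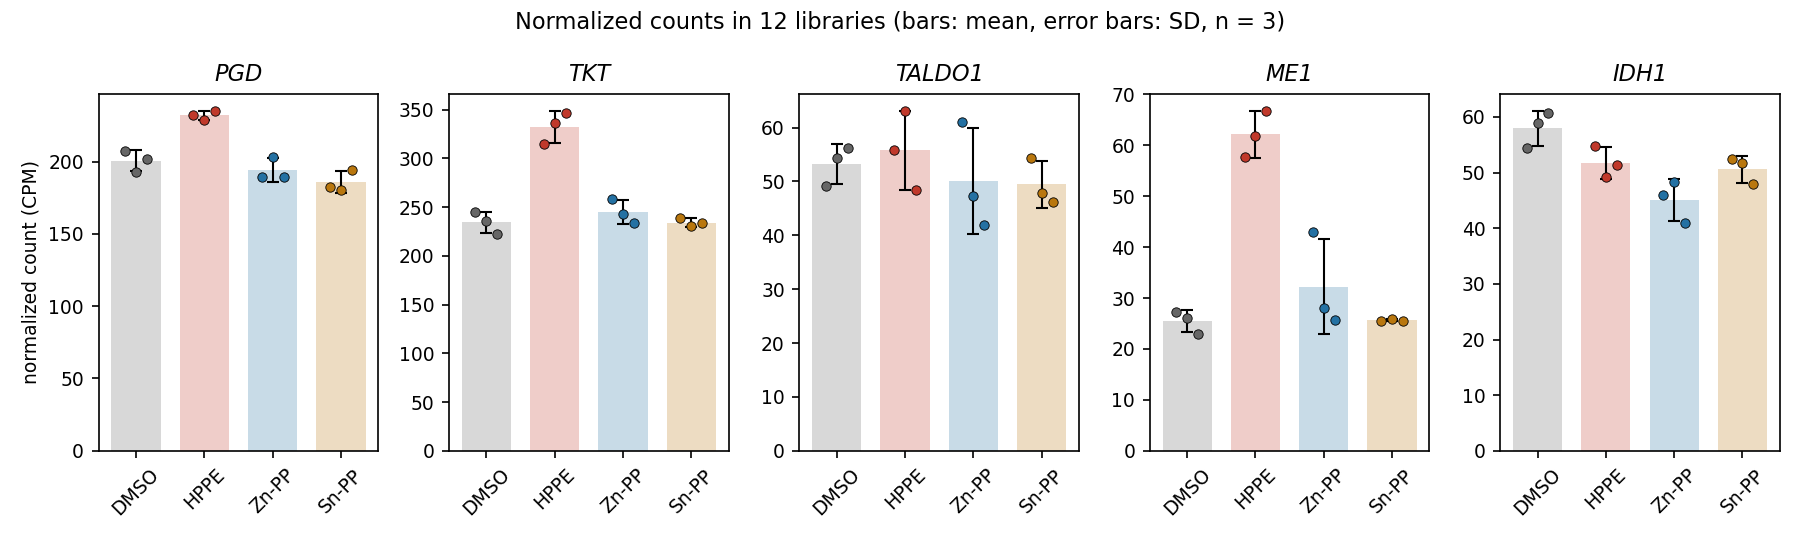
Level in CPM (vertical axis, from 0) of PGD, TKT, TALDO1, ME1 and IDH1 in each of the 12 libraries, grouped by treatment; points are libraries, bars the mean of 3 and error bars the SD (Zn-PP and Sn-PP are zinc and tin protoporphyrin). The HPPE libraries of ME1 lie between 57.65 and 66.81 CPM and those of TKT between 314.3 and 346.7, above every other library, while those of TALDO1 spread across the other groups.

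Across the enzymes, levels can be compared only per length of transcript. In control cells PGD was at 106.3 ± 3.84 CPM per kb, TKT at 77.9 ± 3.70, TALDO1 at 39.5 ± 2.73, IDH1 at 23.8 ± 1.29 and ME1 at 7.55 ± 0.659 (SD, n = 3, longest principal transcript). The order of PGD and TKT depends on the transcript used, since TKT came to 112.9 ± 5.36 with its shortest coding transcript. In HPPE cells ME1 was at 18.4 ± 1.36 CPM per kb and IDH1 at 21.2 ± 1.16, so the gap between these neighbours was smaller than in control cells. The summed level of the 5 genes was 571.5 ± 9.92 CPM in control cells, 734.3 ± 17.7 with HPPE, 566.1 ± 33.0 with zinc and 545.7 ± 8.99 with tin protoporphyrin. TKT and PGD together made up most of it. This sum is not corrected for transcript length, and it includes TKT and TALDO1, which reduce no NADP+ themselves.

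ME1 (malic enzyme, ENSG00000065833.9; GRCh38.p14 chromosome 6, 83210402 to 83431051) stood at 27.25, 26.13 and 22.97 CPM in the control libraries and at 57.65, 61.86 and 66.81 CPM with HPPE. The lowest HPPE library lay above all 9 libraries of the other groups, which held for 2.9% of all genes. The log2 fold change for HPPE against the control was 1.24 ± 0.13 (95% confidence interval 0.97 to 1.51, edgeR adjusted p = 1.33e-05), which ranked ME1 as gene 35 of 16366 by p-value. The call was kept in all 23 alternative fits, with log2 fold changes from 1.201 to 1.29. With tin protoporphyrin the 3 libraries stood at 25.55, 25.87 and 25.46 CPM, inside the control range. The tin difference was -0.02 on the log2 scale (interval -0.31 to 0.26, edgeR adjusted p = 0.964).

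The zinc protoporphyrin libraries of ME1 were uneven, at 42.92, 28.13 and 25.62 CPM. The high value came from the shallowest library of the series, where ME1 had 57 counts and the exact 95% interval for counting error ran from 32.5 to 55.6 CPM. ME1 did not pass the test with zinc (log2 fold change 0.17, interval -0.13 to 0.47, edgeR adjusted p = 0.550), and without that library the difference was 0.04 (adjusted p = 0.906). The interval does not exclude a rise of ME1 by zinc protoporphyrin that is smaller than the rise with HPPE.

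TKT (transketolase, ENSG00000163931.16; chromosome 3, 53224712 to 53256022) stood at 244.9, 235.5 and 222.7 CPM in the control libraries and at 314.3, 336.7 and 346.7 CPM with HPPE. As for ME1, every HPPE library lay above the other 9, which held for 2.9% of all genes. Higher HPPE libraries without overlap with the control alone were found for 11.9% of all genes. The log2 fold change was 0.50 ± 0.08 (interval 0.34 to 0.66, edgeR adjusted p = 0.000685), and the call held in all 23 alternatives, from 0.44 to 0.53. The zinc libraries stood at 258.3, 242.7 and 233.4 CPM and the tin libraries at 238.9, 230.4 and 233.4. Both sets overlapped the control, with differences of 0.05 (interval -0.11 to 0.21) for zinc and -0.01 (interval -0.16 to 0.15) for tin.

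PGD (ENSG00000142657.21; chromosome 1, 10399064 to 10420511) stood at 207, 192.7 and 201.6 CPM in the control libraries and at 231.9, 229 and 235.3 CPM with HPPE. The HPPE libraries again lay above all 9 others, a pattern that 475 of 16366 genes shared, or 2.9%. Against the control the log2 difference was 0.21 ± 0.07 (interval 0.06 to 0.36) and did not pass the test (edgeR adjusted p = 0.119). It passed once the library axis was a term (edgeR adjusted p = 0.0021), which narrows the spread within groups and leaves a trend between groups in place. With the length and GC trend removed the difference was 0.12 (edgeR adjusted p = 0.332). With zinc protoporphyrin PGD stood at 189, 203.5 and 189.5 CPM, and with tin protoporphyrin at 182.6, 180.3 and 194.3 CPM. Both groups overlapped the control, at log2 differences of -0.04 (interval -0.20 to 0.11) and -0.11 (interval -0.26 to 0.04).

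TALDO1 (ENSG00000177156.11; chromosome 11, 747464 to 765012) stood at 49.08, 54.38 and 56.15 CPM in the control libraries and at 55.9, 63.14 and 48.44 CPM with HPPE. The groups overlapped, and the log2 difference was 0.11 ± 0.12 (interval -0.15 to 0.36, edgeR adjusted p = 0.694). The zinc libraries were at 60.99, 47.37 and 41.98 CPM and the tin libraries at 54.39, 47.81 and 46.2 CPM. TALDO1 had the highest correlation of the 5 genes with the library axis within groups, at 0.50, against 0.36 for IDH1 and 0.07 to 0.11 for TKT, PGD and ME1. These are descriptions over the 12 libraries, and the part of that axis in the TALDO1 spread was not tested.

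IDH1 (ENSG00000138413.14; chromosome 2, 208236227 to 208255071) moved the other way in its values. The control libraries stood at 54.5, 58.87 and 60.62 CPM and the HPPE libraries at 54.77, 49.16 and 51.29 CPM. With zinc protoporphyrin the libraries stood at 45.93, 48.28 and 40.9 CPM, all below the control, and with tin protoporphyrin at 52.39, 51.63 and 47.87, also all below. Lower groups without overlap were found for 10.4% of all genes with zinc and for 7.6% with tin. The log2 difference for zinc was -0.36 ± 0.10 (interval -0.56 to -0.16, edgeR unadjusted p = 0.00159) and did not pass after adjustment (adjusted p = 0.0586). It passed in 4 of 23 alternatives. The edgeR adjusted p was 0.0390 without the filter on low counts, 0.0326 with the length and GC trend removed and 0.0354 without tin protoporphyrin replicate 2. It was 0.00051 with the library axis as a term, which narrows the spread within groups by construction. For tin the difference was -0.18 (interval -0.37 to 0.01, adjusted p = 0.364) and for HPPE -0.15 (interval -0.35 to 0.04, adjusted p = 0.415). In these bulk samples, a smaller share of cells with IDH1 RNA and less IDH1 RNA per cell cannot be told apart.

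Counted together, HPPE against the control called 2 of the 5 genes higher and none lower by edgeR, which can be read against the 2.57% of all genes called higher. At an unadjusted p under 0.05 the count was 3, since PGD joined ME1 and TKT, and DESeq2 called the same 2 genes. The median log2 fold change of the 5 genes was 0.21, against 0.02 for all genes tested. Zinc protoporphyrin called 0 of 5, with 1 gene, IDH1, at an unadjusted p under 0.05 and 0 called by DESeq2. Tin protoporphyrin called 0 of 5, with 0 genes at an unadjusted p under 0.05 and 0 called by DESeq2. These 3 comparisons share the control libraries.

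**Figure D2:**
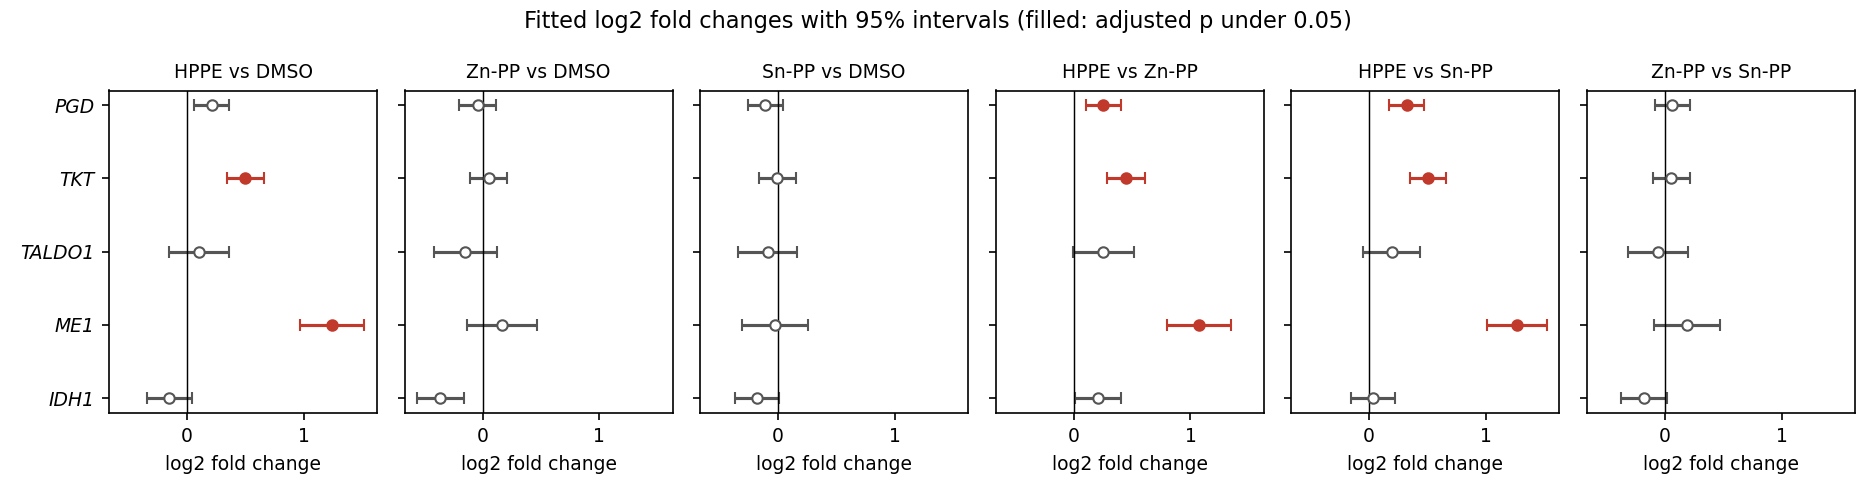
Log2 fold change (axis) with its 95% confidence interval for each of the 5 genes in the 6 pairwise comparisons, from the edgeR fit. The intervals of ME1, TKT and PGD lie clear of 0 in the 3 comparisons that hold HPPE. Against the control these genes lie at 1.24, 0.50 and 0.21, and PGD did not pass the adjusted test there. The IDH1 interval is clear of 0 for zinc protoporphyrin against the control and for HPPE against zinc, without passing the test. The intervals of all 5 genes cross 0 between zinc and tin protoporphyrin.

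The compounds were then compared directly, at the same dose and time, in 3 pairs. HPPE against zinc protoporphyrin called PGD, TKT and ME1 higher, 3 of 5, where 6.44% of all genes were called higher. The log2 differences were 1.07 for ME1 (interval 0.80 to 1.35, edgeR adjusted p = 0.000134), 0.45 for TKT (interval 0.29 to 0.61, adjusted p = 0.00273) and 0.25 for PGD (interval 0.10 to 0.41, adjusted p = 0.0333). TALDO1 and IDH1 did not pass, at 0.25 (interval -0.01 to 0.51) and 0.21 (interval 0.01 to 0.41, adjusted p = 0.137).

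HPPE against tin protoporphyrin called the same 3 genes higher, where 0.745% of all genes were called higher. ME1 differed by 1.27 on the log2 scale (interval 1.01 to 1.52, edgeR adjusted p = 6.71e-06), TKT by 0.50 (interval 0.35 to 0.66, adjusted p = 0.000983) and PGD by 0.32 (interval 0.17 to 0.47, adjusted p = 0.0267). TALDO1 and IDH1 did not pass, at 0.19 (interval -0.05 to 0.44) and 0.03 (interval -0.16 to 0.22).

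ME1 and TKT were called against both porphyrins in all 23 alternatives. The PGD calls were less firm, and each was lost in 11 of 23 alternatives. Against zinc the call was lost without any 1 of the 3 HPPE or the 3 zinc libraries, without control replicate 2 and without tin replicate 3, and with the length and GC trend removed the difference fell to 0.12 (adjusted p = 0.209). Against tin the call was lost without any 1 of the 3 HPPE or the 3 tin libraries and without control replicate 2, with log2 differences that stayed between 0.30 and 0.35 over all 23 alternatives.

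Zinc and tin protoporphyrin differ in the metal they carry. Between them 0 of 5 genes were called by edgeR, with 0 at an unadjusted p under 0.05 and 0 by DESeq2, and 0.00611% of all genes were called (1 gene, HMOX1). The log2 difference of zinc from tin was 0.19 for ME1 (interval -0.09 to 0.48, adjusted p = 0.517), 0.06 for TKT (interval -0.10 to 0.22), 0.07 for PGD (interval -0.09 to 0.22), -0.06 for TALDO1 (interval -0.32 to 0.20) and -0.18 for IDH1 (interval -0.37 to 0.02). These intervals show how large a difference the 3 libraries per group leave room for, up to 0.48 for ME1 and 0.22 for TKT and PGD. A test for any difference among the 4 groups called ME1 (adjusted p = 4.56e-06), TKT (0.000566) and PGD (0.0344), where 7.18% of all genes were called, and did not call IDH1 (0.0978) or TALDO1 (0.392).

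**Figure D3:**
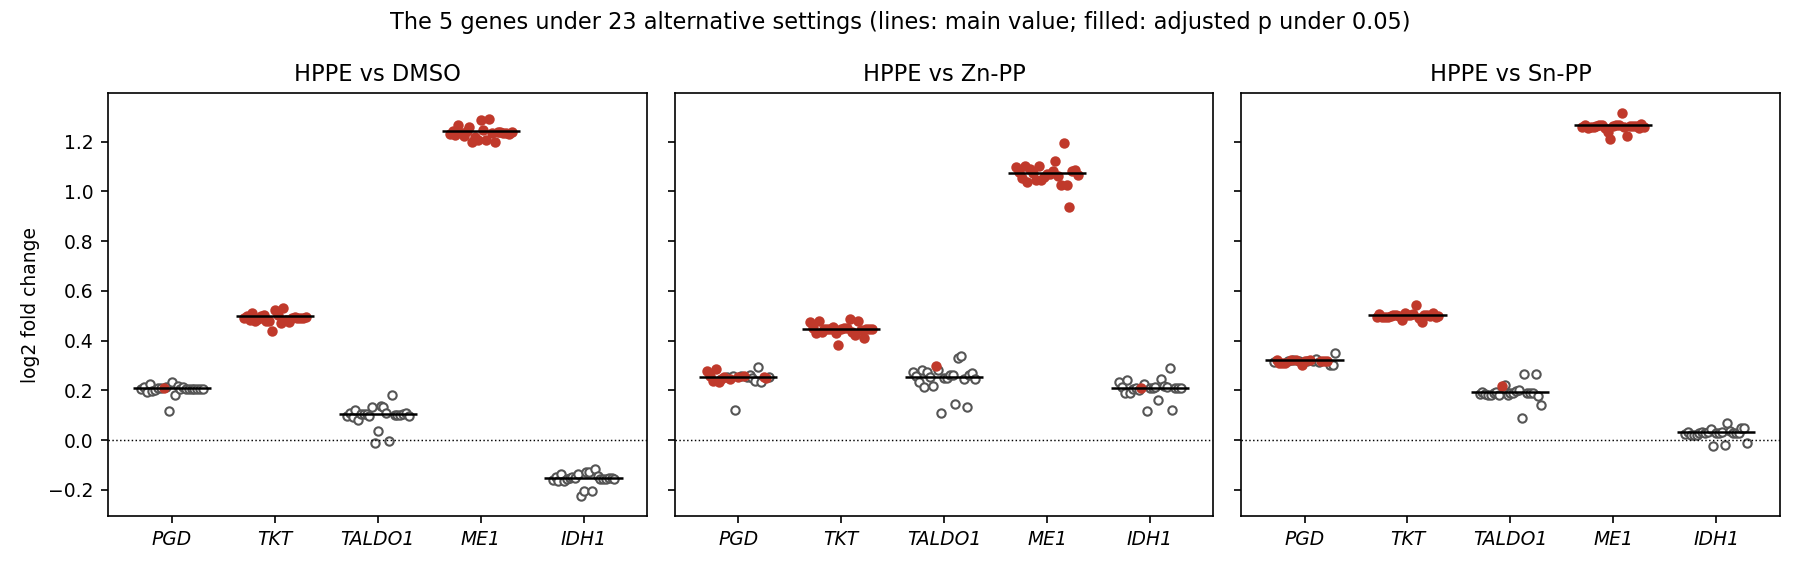
Log2 fold change of each of the 5 genes under the 23 alternative fits (points, filled where the adjusted p was under 0.05), beside the main value (line), for HPPE against the control, zinc (Zn-PP) and tin protoporphyrin (Sn-PP). ME1 stays between 1.201 and 1.29 and TKT between 0.44 and 0.53 for HPPE against the control.

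The ratio of ME1 to TKT counts within a library needs no scaling between libraries. ME1 had 0.1113, 0.111 and 0.1032 counts for each TKT count in the control libraries and 0.1834, 0.1837 and 0.1927 with HPPE. The groups did not overlap, and the two-sided exact permutation test gave p = 0.1, the smallest that 3 against 3 allows. With tin protoporphyrin the ratio was 0.107, 0.1123 and 0.1091 (exact permutation p = 0.8). With zinc it was 0.1662, 0.1159 and 0.1098 (exact permutation p = 0.3), and the high value was again the shallowest library. Adjusted over these 3 tests, the exact permutation p-values were 0.3 for HPPE, 0.45 for zinc and 0.8 for tin. ME1 per PGD count averaged 0.127 ± 0.0116 in control and 0.268 ± 0.0178 in HPPE libraries (SD, n = 3).

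The genes whose levels over the 12 libraries were most like each enzyme were named by the highest Pearson correlation, as a description with no p-value, since libraries share groups, depth and the library axis. For TKT they were TXNRD1 (r = 0.987), the cytosolic thioredoxin reductase, DNAJB4 (0.981), a co-chaperone, and SQSTM1 (0.979), the autophagy receptor p62. For ME1 they were HTRA3 (0.985), a serine protease with a mean of only 0.818 CPM, GCLM (0.979), the modifier subunit of the enzyme that starts glutathione synthesis, and TKT (0.977). For PGD they were HSP90AB1 (0.950), a chaperone, CCT6A (0.931), a chaperonin subunit, and GSR (0.918), glutathione reductase. TALDO1 was most like FKBP9 (0.890), PQBP1 (0.864) and a gene known only as ENSG00000282386 (0.846), and IDH1 most like a gene known only as ENSG00000261534.1 (0.936), ZNF556 (0.911) and NUS1 (0.903). Within groups the correlation of TKT and ME1 was 0.81, and that of PGD and TKT was 0.06.

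The rest of the pentose phosphate pathway did not pass the test with any compound. The list held 14 further genes of the pathway and of ribose 5-phosphate use, and 11 had enough counts to be tested. With HPPE 0 of 11 were called, with 1 gene, H6PD, at an unadjusted p under 0.05 and 0 called by DESeq2, and the median log2 fold change was 0.02. H6PD, which runs the oxidative steps inside the endoplasmic reticulum, stood at 146.5 ± 18.7 CPM in control and 123.2 ± 9.56 CPM in HPPE cells (adjusted p = 0.122). PGLS, the lactonase just before PGD, stood at 29.9 ± 1.99 and 31.1 ± 0.920 CPM (adjusted p = 0.848). Zinc protoporphyrin also called 0 of 11, with H6PD at an unadjusted p under 0.05, and tin 0 of 11 with none. DESeq2 called 0 with either. The transketolase-like gene TKTL2 had 0 counts in every HPPE and control library.

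Other producers of NADPH, the NAD kinases and folate enzymes that work with them form a list of 15 genes, of which 13 were tested. HPPE called 0 of 13 by edgeR, with 0 at an unadjusted p under 0.05 and 0 by DESeq2, and the median log2 fold change was 0.04. IDH2, the mitochondrial relative of IDH1, stood at 157.7 ± 8.69 CPM in control and 143.5 ± 7.60 CPM in HPPE cells (adjusted p = 0.382). ME3, the mitochondrial relative of ME1 that uses NADP+, stood at 5.45 ± 0.301 and 6.03 ± 0.214 CPM (adjusted p = 0.832). MTHFD2, a mitochondrial folate enzyme, stood at 102.2 ± 3.12 and 103.5 ± 4.45 CPM (adjusted p = 0.946). Zinc and tin protoporphyrin each called 0 of 13, with GLUD1 and MTHFD1L respectively at an unadjusted p under 0.05, and DESeq2 called 0.

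Of the 18 NAD-linked counterparts and carriers around ME1 and IDH1, all tested, 0 were called with any of the 3 compounds, 0 were at an unadjusted p under 0.05 and DESeq2 called 0. ME2, the mitochondrial malic enzyme that prefers NAD+, stood at 96.15 ± 12.03 CPM in control and 106 ± 1.07 CPM in HPPE cells (adjusted p = 0.572). Between compounds, HPPE against zinc protoporphyrin called GLUD1, a glutamate dehydrogenase (0.32, adjusted p = 0.0344), and IDH3G, a subunit of the NAD-linked isocitrate dehydrogenase (0.62, adjusted p = 0.0286). These 2 genes were named after their values were seen, and DESeq2 called IDH3G but not GLUD1. GLUD1 also lost its call without control replicate 2, HPPE replicate 2 or 3, or zinc replicate 1 or 3, and IDH3G without HPPE replicate 2 or 3 or zinc replicate 2 or 3.

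The reductases that spend NADPH were listed next, in a list that also holds oxygenases such as HMOX1 and HMOX2. All genes of this list are counted as reductases for short. Of 21 reductases listed, 18 were tested, and HPPE called 7 higher and 0 lower, where 2.57% of all genes were called higher. At an unadjusted p under 0.05 the count was 11, DESeq2 called 6, and the median log2 fold change of the list was 0.45. HMOX1, heme oxygenase, which draws electrons from NADPH through POR, stood at 5.90 ± 1.57 CPM in control and 351.5 ± 17.6 CPM in HPPE cells and rose by 6.04 ± 0.22 on the log2 scale (edgeR adjusted p = 2.61e-11). NQO1, a quinone reductase, rose by 2.51 on the log2 scale, from 22.4 ± 2.40 to 123.9 ± 10.8 CPM (adjusted p = 1.16e-08). TXNRD1 rose by 1.77, from 235.3 ± 17.8 to 806.1 ± 35.4 CPM (adjusted p = 2.65e-09), and GSR by 0.77, from 92.5 ± 2.93 to 157.9 ± 2.87 CPM (adjusted p = 7.56e-06).

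The other 3 were AKR1C3 (log2 fold change 2.04), AKR1C1 (1.44) and POR (0.41, adjusted p = 0.0428). AKR1C1 and AKR1C3 are aldo-keto reductases with near-identical copies, so reads could be split between them and their values are uncertain. AKR1C1 lost its call without control replicate 2 and without HPPE replicate 2. POR, the electron donor of HMOX1, lost its call in 13 of 23 alternatives, among them DESeq2, the comparison of these groups alone and leaving out control replicate 1 or 2, HPPE replicate 2 or 3, any zinc library or tin replicate 3. Of the 11 reductases not called, FDXR and HMOX2 had lower values with HPPE and the others higher.

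With zinc protoporphyrin 1 of 18 genes of the reductase list was called, the heme oxygenase HMOX1, at 46.97 ± 19.2 CPM (log2 fold change 2.97, edgeR adjusted p = 4.05e-06). TXNRD1, GSR and NQO1 did not pass. With tin protoporphyrin 0 of 18 were called by edgeR, with 1 gene, PTGR1, at an unadjusted p under 0.05 and 0 by DESeq2. HPPE against zinc called 9 of 18 higher, where 6.44% of all genes were called higher, and HPPE against tin called 5 of 18, where 0.745% were. The 9 included CBR1 (0.81) and CRYZ (0.70), which were called neither against the control nor against tin and were named after their values were seen. Both calls were lost without HPPE replicate 2 and without zinc replicate 3, that of CBR1 also without zinc replicate 2 and that of CRYZ also without HPPE replicate 3.

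The lipid and sterol enzymes that use NADPH, 10 of 10 tested, gave few calls. HPPE called 1 higher, LBR, a sterol reductase of the nuclear envelope, by 0.43 on the log2 scale (134.5 ± 4.69 CPM in control and 181.9 ± 5.70 in HPPE cells, adjusted p = 0.00177). FASN, fatty acid synthase, stood at 812 CPM in control and 833.9 CPM in HPPE cells (adjusted p = 0.854). Tin protoporphyrin called 1 higher, SQLE, squalene epoxidase of cholesterol synthesis, by 0.34 on the log2 scale (78.3 ± 3.63 CPM in control and 98.1 ± 2.79 in tin cells, adjusted p = 0.0337). That call was lost in 11 of 23 alternatives, among them DESeq2 and leaving out control replicate 1 or 2, any HPPE library or tin replicate 3. Zinc protoporphyrin called 0 of 10, with 3 at an unadjusted p under 0.05, and DESeq2 called 0.

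**Figure D4:**
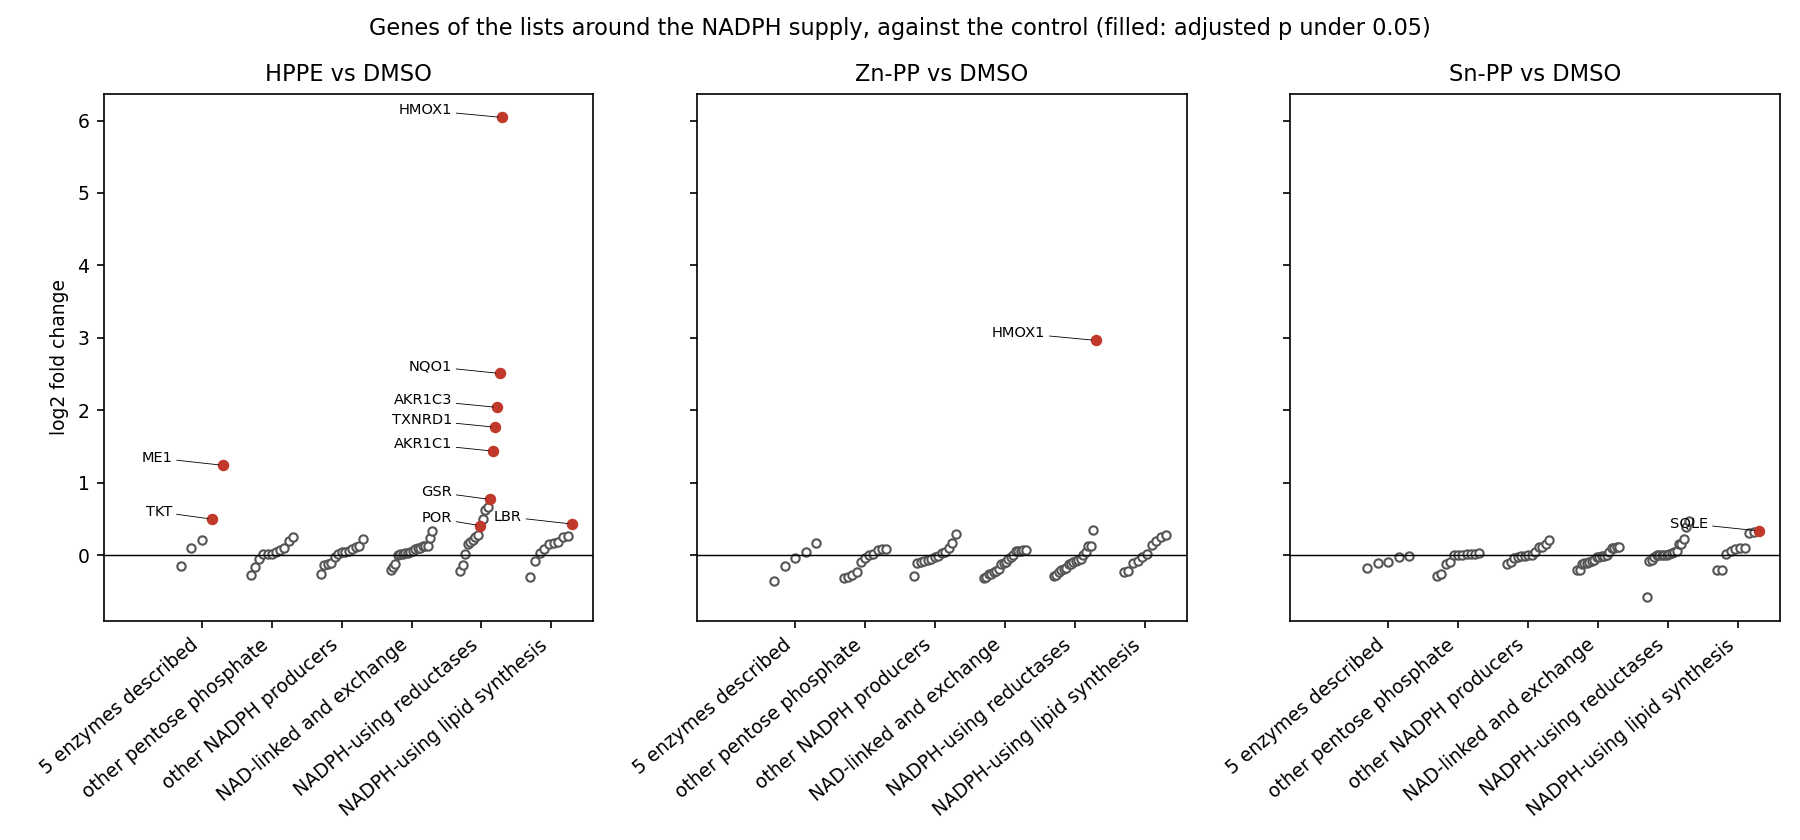
Log2 fold change against the control (vertical axis) of every tested gene in the 5 enzymes and the 5 further lists, with 1 panel per compound; filled points passed the test. The HPPE panel holds the called genes of the reductase list, from POR at 0.41 to HMOX1 at 6.04, beside ME1 at 1.24 and TKT at 0.50. In that panel 0 of the genes of the other producer lists passed.

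Of genes that overlap the 5 enzymes, the antisense gene IDH1-AS1 overlaps exons of IDH1 and had at most 1 count in a library, while IDH1 had at least 61. A gene on the opposite strand of ME1 shares no exon with it and had at most 3 counts, while ME1 had at least 36.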

How the data were processed

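The authors deposited a table of whole-number read counts per gene, not normalized, for the 12 libraries. Per the submitters' processing notes the tools were fastp 0.21.1, STAR 2.7.7a and featureCounts, with the build GRCh38; the annotation and the strand setting are not given in the sources used here. Whether reads from a gene and its antisense partner were separated by strand is therefore not known. Symbols came from a table of gene names, which matched 60481 of 60710 identifiers.

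Counts were analysed with edgeR 4.0.16 in R 4.3.3: filterByExpr by group (16366 genes, 99.63% of counts), TMM scaling, 1 model with a mean per group over all 12 libraries, robust glmQLFit and glmQLFTest. CPM values are the deposited counts scaled to those library sizes. DESeq2 1.42.0 was an alternative. The biological coefficient of variation was 0.0913. On simulated counts for HPPE against control, 45.8% of genes changed 1.5-fold and 72.2% of genes changed 2-fold were recovered, with 4.99% false among the calls. The simulated counts were drawn independently, with no library axis and no length trend that differed between groups. These rates therefore describe the simulation and may not hold for the real libraries. Without molecular identifiers, the exact intervals describe counting error alone; 3 counts correspond to between 0.338 and 2.26 CPM.

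The members and lists were chosen with earlier results of these data known. Named by rule were the 5 enzymes, list genes called against the control and the 3 genes most like each enzyme; other list genes named with values (H6PD, PGLS, TKTL2, IDH2, ME2, ME3, MTHFD2, FASN and those at an unadjusted p under 0.05) were picked after their values were seen. The fit with length and GC trends removed was added after seeing the data. Promoters came from RefSeq, GRCh38.p14, and matched all 5 genes; transcript lengths came from GENCODE 29. Some genes of the lists, markers included, are not reported here.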

Additional observations from a re-analysis of the deposited data

How the results depend on the processing

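Over 23 alternatives and 6 comparisons, 690 refits of the 5 genes gave 659 on the same side of the threshold, with the same direction or, where uncalled, a shift under 1 standard error. Of the rest, 22 lost a call (all PGD, against the 2 porphyrins), 8 gained one, 1 uncalled value changed sign by more (TALDO1, zinc against tin, 0.07 with the length and GC trend removed) and 0 reversed. Zinc protoporphyrin against the control called 1 enzyme gene lower in place of 0 (IDH1) with no filter, with the library axis as a term, with the length and GC trend removed and without tin replicate 2 (range 0 to 1 when 1 library was left out). With the library axis as a term, HPPE against zinc called 5 higher in place of 3, and 5 differed among the 4 groups; that axis was built from the same residuals, which narrows the spread by construction.

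Counts over all genes moved more. HPPE against the control called 421 genes higher, 215 without HPPE replicate 2 and 1449 with the library axis, and 241 lower, 66 without control replicate 1 and 1223 with the axis. HPPE against zinc called 1054 higher, 100 without zinc replicate 3, and zinc against tin called 1 higher, 777 without tin replicate 2.

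Libraries with the same replicate number were not consistently alike in their deviations from the group means. Of 18 same-numbered pairs 5 correlated over 0.1, with a range of -0.68 to 0.52, while differently numbered pairs ran from -0.66 to 0.70. The library axis held much of these deviations, and whether samples with the same number shared a culture or batch was not tested. With the replicate number as a block, 2 enzyme genes were called higher against the control, zinc and tin (ME1 1.26 and TKT 0.50 against the control), and PGD lost its calls against zinc (adjusted p = 0.0722) and tin (0.0890). HPPE replicates 2 and 3 had the lowest chi-square per degree of freedom of any replicate pair, at 1.125, and still differed beyond sampling noise. Depth limits the ME1 value in zinc replicate 1, the shallowest library, at 1337028 counts.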
